A study of Homo sapiens with 16 samples.

Results

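RNA levels of 50 genes that build and drive the mitotic machine were followed through the isogenic BJ fibroblast model, a series of human skin fibroblast lines that lead from normal to malignant growth. The 50 genes were taken by name from a fixed list of mitotic kinases and cyclins, spindle checkpoint proteins, kinetochore and centromere proteins, spindle motors and cytokinesis proteins. They are 50 of 34451 genes for which transcripts were summed, and all 50 were tested in each of 13 comparisons. Like the further lists below, the 50 were chosen with earlier results of these data known. Their counts beside those of all genes are therefore a description. The 4 stages were primary BJ cells, immortalized cells (BJ hTERT+, which carry telomerase), transformed cells (BJ hTERT+ SV40+, which carry the SV40 Large-T protein as well) and metastasizing cells (BJ hTERT+ SV40+ Ras-G12V, which carry mutated H-Ras on top of both). Each stage was grown for 6 passages at atmospheric oxygen or at 3% oxygen on duplicate plates in parallel, so that the 8 groups hold 2 libraries each. Each stage is 1 cell line and each library 1 plate, so the p-values below measure only the spread between parallel plates.

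At entry into mitosis the kinase CDK1 with cyclin B breaks down the interphase order of the cell, and Aurora A and PLK1 ripen the spindle poles. Kinetochores then tie chromosomes to spindle microtubules, the spindle checkpoint holds back the anaphase-promoting complex until every chromosome is attached, and destruction of securin and cyclin B starts anaphase and cytokinesis. Most of these genes are transcribed in G2 and M phase, under B-MYB, FOXM1 and the MuvB complex, and their RNA is used as a measure of dividing cells in cultured fibroblasts. In RNA from a whole plate, a larger share of cells in mitosis and more RNA per mitotic cell cannot be told apart.

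The MuvB complex is known to bind the cell cycle genes homology region, searched here as TTTGAA or TTCGAA, and the factor NF-Y to bind CCAAT. In RefSeq promoters (250 bases before to 50 after a gene's start, GRCh38.p14, both strands), 42 of the 50 genes had an entry, while AURKA, BUB3, TTK, KNL1, BIRC5, TPX2, UBE2C and FOXM1 had none. TTTGAA was found in 29 of the 42 (69.0%) and in 18.2% of all 27305 genes with an entry. CCAAT was found in 35 (83.3%) against 39.7% of all genes, and both motifs stood in 25 (59.5%) against 8.37%. TTCGAA was found in 3 of the 42 (7.14%) against 1.82% of all genes. The 27305 genes were not filtered by type, while all 42 members are protein-coding. Printed here are the 120 bases before the start of 9 genes, to show where the motifs stand. All but MKI67 were called higher from immortalized to transformed cells at atmospheric oxygen. The capitals mark TTTGAA and CCAAT or their reverse complements TTCAAA and ATTGG, and in CDCA8 and MKI67 a TTTGAA and an ATTGG share 1 base. The first 6 hold both motifs, CCNB1 and KIF20A hold CCAAT only, and KIF2C holds neither in this window.
CDC20: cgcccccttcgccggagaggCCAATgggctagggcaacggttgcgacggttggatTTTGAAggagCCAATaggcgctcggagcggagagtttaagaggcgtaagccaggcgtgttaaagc
CDCA8: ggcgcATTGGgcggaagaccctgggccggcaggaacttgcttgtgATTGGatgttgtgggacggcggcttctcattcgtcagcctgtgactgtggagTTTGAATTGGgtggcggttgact
CCNB2: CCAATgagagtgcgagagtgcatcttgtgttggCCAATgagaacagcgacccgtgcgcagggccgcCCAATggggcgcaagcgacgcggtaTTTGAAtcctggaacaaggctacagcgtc
PLK1: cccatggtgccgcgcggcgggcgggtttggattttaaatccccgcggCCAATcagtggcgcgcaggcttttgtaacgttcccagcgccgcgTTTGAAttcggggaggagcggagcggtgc
KIF18A: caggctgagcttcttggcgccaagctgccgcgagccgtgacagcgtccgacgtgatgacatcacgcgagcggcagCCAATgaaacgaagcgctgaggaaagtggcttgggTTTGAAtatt
MKI67: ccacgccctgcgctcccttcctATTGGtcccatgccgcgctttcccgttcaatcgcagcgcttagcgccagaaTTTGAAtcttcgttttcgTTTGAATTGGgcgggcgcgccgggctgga
CCNB1: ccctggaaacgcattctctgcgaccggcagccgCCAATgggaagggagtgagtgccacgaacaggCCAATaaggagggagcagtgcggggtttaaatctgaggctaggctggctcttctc
KIF20A: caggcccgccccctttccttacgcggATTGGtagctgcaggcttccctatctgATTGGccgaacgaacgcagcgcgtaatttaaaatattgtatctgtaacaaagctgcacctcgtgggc
KIF2C: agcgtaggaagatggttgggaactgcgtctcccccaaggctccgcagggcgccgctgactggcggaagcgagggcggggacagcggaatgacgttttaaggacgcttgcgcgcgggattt
On GRCh38.p14 these stretches are chr1:43358861-43358980, chr1:37692396-37692515, chr15:59105026-59105145, chr16:23678769-23678888, chr5:69167030-69167149, chr5:138178992-138179111 and chr1:44739717-44739836 on the plus strand, and chr11:28108157-28108276 and chr10:128126424-128126543 on the minus strand. Gene positions given below are on GRCh37, the build the libraries were quantified against, and the builds are not mixed.

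The values are TPM, transcript abundances per length scaled to the same total in every library, which keep no record of depth, so the number of reads behind a value is unknown. As a check of the labels, TERT was listed at 0 TPM in primary cells at atmospheric oxygen and 0.037 to 0.543 TPM at 3% oxygen, and lay between 31.6 and 193 TPM in every later library. Total HRAS was 78.1 to 94.6 TPM in the libraries labelled metastasizing at atmospheric oxygen and 99.0 to 119.8 TPM in transformed cells, and 143 to 772 TPM in metastasizing cells at 3% oxygen, so its level alone does not separate these stages. Of 10 fibroblast markers every one was above 0 in each library, and their summed level ran from 23426 and 24150 TPM in primary cells at atmospheric oxygen down to 4613 and 5710 TPM in transformed cells at 3% oxygen. The 6 epithelial markers summed to at most 205 TPM, nearly all of it KRT19 in primary cells, the 4 endothelial ones matched to at most 10.4 TPM and the 5 leukocyte ones to at most 3.73 TPM, with CD3E at 0 throughout. The part of these marker levels in the results below was not tested. One group stood apart, since 11% of genes differed more than 2-fold between the 2 libraries of metastasizing cells at 3% oxygen, against 2.24% to 4.53% in the other groups. Library b was the higher one there in 49 of the 50 mitotic genes, by a median of 0.63 on the log2 scale, and every result on that group is given with this in view. The mitotic genes also moved together between plates elsewhere. Library b was higher for 44 of the 50 in both primary groups and 48 in immortalized cells at atmospheric oxygen. It was higher for only 10 in immortalized and 7 in transformed cells at 3% oxygen. In transformed and metastasizing cells at atmospheric oxygen it was higher for 21 and 36. Counts of the 50 genes are therefore not counts of independent results.

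The level of the mitotic genes was lowest in immortalized cells at atmospheric oxygen. This group held the lowest mean of all 8 groups for 47 of the 50 genes, the others being BUB3 and KIF11, lowest in primary cells at atmospheric oxygen, and CDC25B, lowest in metastasizing cells at 3% oxygen. The share of all genes that were lowest in this group was not computed. Its 2 libraries also had the lowest median-ratio scaling factors of the 16, 0.884 and 0.908, so genes in general read low there. The median of the 50 mean levels was 68.1 TPM in primary cells at atmospheric oxygen and 106.8 TPM at 3% oxygen. In immortalized cells it was 44.2 and 81.7 TPM, in transformed cells 107.5 and 98.2 TPM, and in metastasizing cells 96.1 and 85.5 TPM, each time with atmospheric oxygen first. Primary cells at 3% oxygen and transformed cells at atmospheric oxygen each held the highest mean of 16 genes. KIF14, a kinesin of the midzone, was the least abundant gene in 6 of the 8 groups, from 8.95 TPM in immortalized cells at atmospheric oxygen to 22 TPM in primary cells at 3% oxygen. PTTG1 (securin), BUB3, cyclin B1 and UBE2C took turns as the most abundant, between 295 and 509 TPM.

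**Figure D1:**
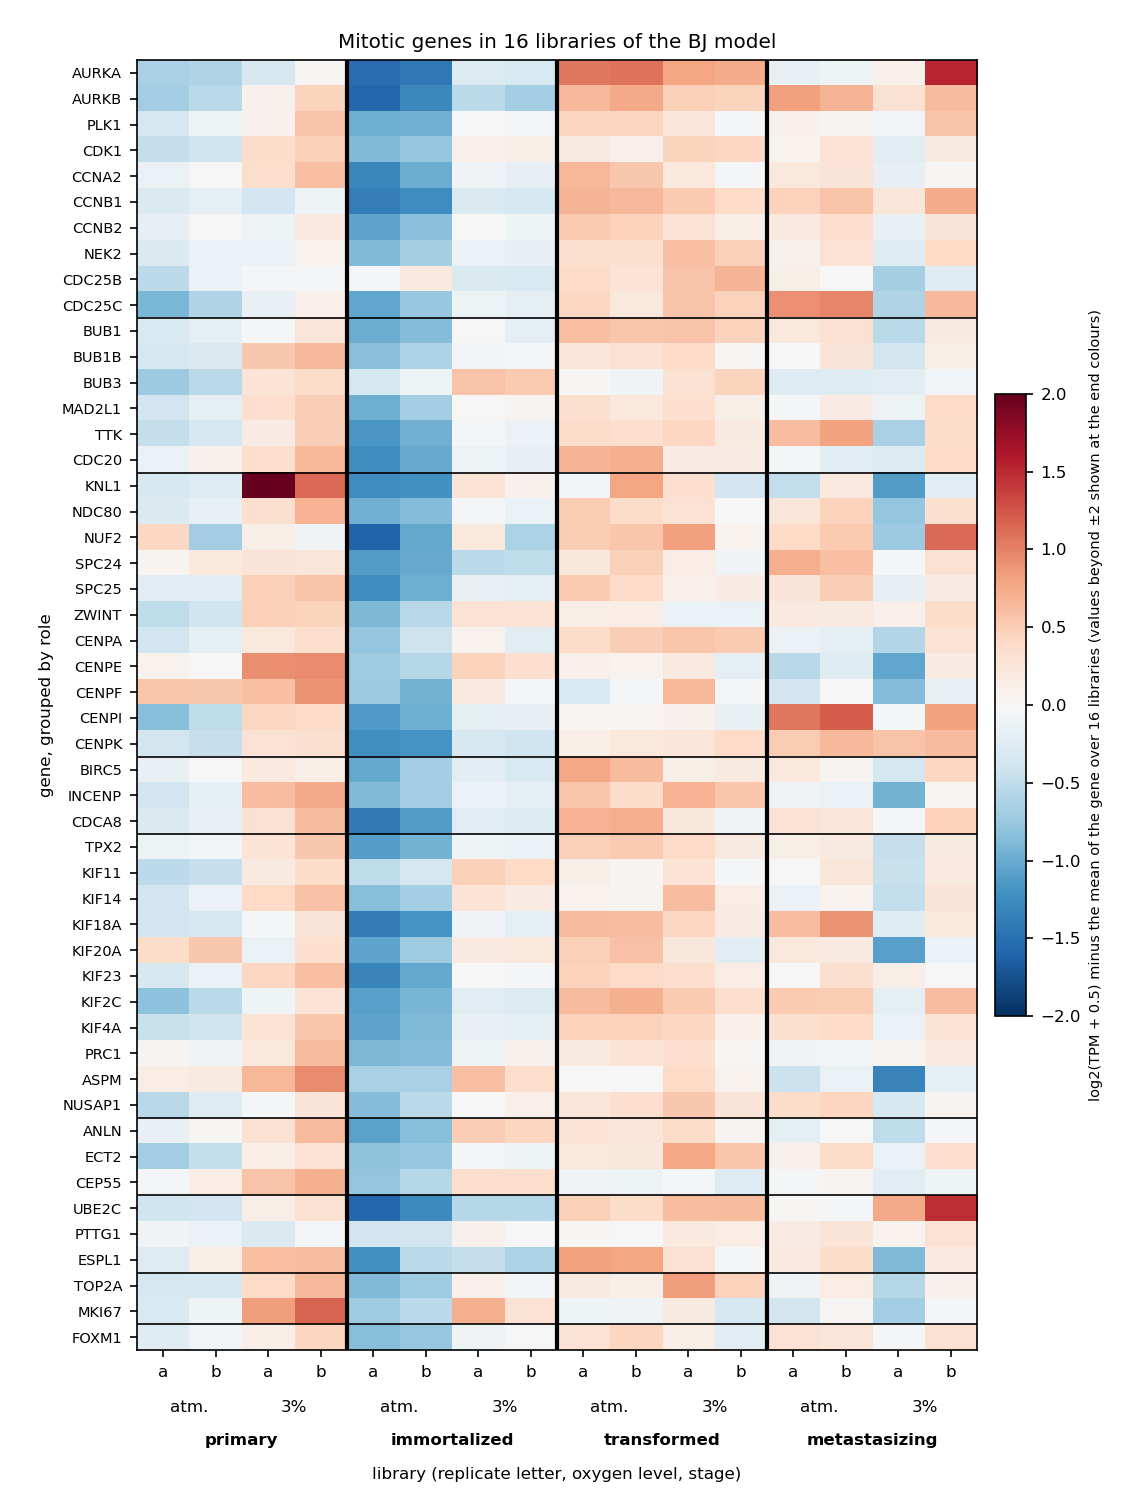
Level of each of the 50 genes (rows, grouped by role) in each of the 16 libraries (columns), as log2(TPM + 0.5) minus the mean of the gene over the 16 libraries, with red above and blue below that mean. The 2 columns of immortalized cells at atmospheric oxygen are blue in nearly every row, and replicate b of metastasizing cells at 3% oxygen is redder than replicate a in 49 of 50 rows.

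Comparisons were fitted with limma on log2(TPM + 0.5), and a fold change on this scale understates the change of low genes. A gene is called here where the adjusted p (Benjamini-Hochberg over all protein-coding genes tested) was under 0.01 and the log2 fold change beyond 1 in either direction. Rescaling the libraries by median ratios moved the median of all genes by over 0.1 in several comparisons, at most from 0.22 to nearly 0 in the step from immortalized to transformed cells at atmospheric oxygen. For this reason each median over the 50 genes with every library kept is set beside the median over all genes tested. Medians and counts of calls with a library left out are given for the 50 genes alone. How far all genes moved in those fits is not shown.

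The first question was how the mitotic genes responded to low oxygen in primary cells. They were mostly higher at 3% oxygen, by a median of 0.65 on the log2 scale against 0.08 for all genes, and KNL1, MKI67 and CENPI passed the test. KNL1 is the kinetochore scaffold that recruits the checkpoint kinase BUB1, MKI67 encodes the Ki-67 protein that coats mitotic chromosomes, and CENPI belongs to the inner kinetochore. The 3 called genes compare with 2.78% of all 12184 genes tested that were called higher. At an adjusted p under 0.01 whatever the fold, 15 of the 50 were higher and none lower, against 8.36% of all genes higher and 4.4% lower.

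KNL1 (chromosome 15, 40886218 to 40956540) stood at 18.1 and 19.0 TPM at atmospheric oxygen and 129 and 50.4 TPM at 3% oxygen. Both libraries at 3% oxygen lay above both at atmospheric oxygen, and the log2 difference was 2.09 ± 0.45 (SE, n = 2 libraries against 2, limma adjusted p = 0.00684). The gap between the replicates at 3% oxygen came from 1 transcript, KNL1-204, annotated as a retained intron, which was listed at 80.3 and 0 TPM there and at 0 in both libraries at atmospheric oxygen. Protein-coding KNL1 transcripts alone gave 7.15 and 9.91 TPM at atmospheric oxygen and 39.4 and 38.1 TPM at 3% oxygen, a log2 difference of 2.14 with an adjusted p of 0.000496, by a sum chosen after seeing the data (adjusted p from 0.000496 to 0.0402 over the alternatives other than left-out libraries). MKI67 (chromosome 10, 129894923 to 129924687) read 54.5 and 63.9 TPM at atmospheric oxygen and 121 and 152 TPM at 3% oxygen, again without overlap, a log2 difference of 1.19 ± 0.24 (SE, limma adjusted p = 0.00513). CENPI rose from 16.0 and 20.3 TPM to 38.9 and 38.2 TPM, by 1.08 ± 0.22 on the log2 scale (limma adjusted p = 0.00541). Over the same alternatives the adjusted p of CENPI ran from 0.00022 to 0.018 and that of MKI67 from 0.00178 to 0.0164.

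Several genes of mitotic entry and the checkpoint moved by less than 2-fold but beyond the spread of the plates. CDK1, the kinase that starts mitosis, was 141 and 148 TPM at atmospheric oxygen and 253 and 274 TPM at 3% oxygen, a log2 difference of 0.86 ± 0.12 (limma adjusted p = 0.000557). BUB3, a checkpoint protein that binds the phosphorylated kinetochore, was 186 and 212 TPM at atmospheric oxygen and 370.4 and 394 TPM at 3% oxygen, a difference of 0.94 (adjusted p = 0.000193). AURKB, the kinase of the chromosomal passenger complex, read 74.0 and 82.2 TPM at atmospheric oxygen and 127 and 164 TPM at 3% oxygen, a difference of 0.88 (adjusted p = 0.00167). TOP2A, the topoisomerase that untangles sister chromatids, read 161 and 164 TPM at atmospheric oxygen and 266 and 321 TPM at 3% oxygen, with a difference of 0.84 (adjusted p = 0.00922). Each of these 4 genes was higher in both libraries at 3% oxygen. In all, 44 of the 50 genes were higher and 1 lower at 3% oxygen without overlap of the libraries, against 40.8% and 26.9% of all genes, and CCNB1, CCNB2, NEK2, NUF2 and PTTG1 overlapped.

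KIF20A, a kinesin of the spindle midzone, was the 1 gene whose primary libraries were all lower at 3% oxygen, at 129 and 145 TPM at atmospheric oxygen and 91.1 and 126 TPM at 3% oxygen, a difference of -0.35 ± 0.27 that did not pass the test (adjusted p = 0.365). Cyclin B1, the partner of CDK1, stood at 239 and 257 TPM at atmospheric oxygen and 224 and 274 TPM at 3% oxygen, and the libraries overlapped. Aurora A, at 83.3 and 86.5 TPM at atmospheric oxygen and 105 and 133 TPM at 3% oxygen, and PLK1, at 92.4 and 109.9 TPM at atmospheric oxygen and 123 and 173 TPM at 3% oxygen, gave differences of 0.47 and 0.53 with adjusted p of 0.297 and 0.0687. The kinases and cyclins thus spread from no difference (CCNB1) to 0.88 (AURKB), with a median of 0.50 over 10 genes, while the 6 checkpoint genes had a median of 0.72 and the 11 kinetochore genes of 0.72. The count of 3 called genes fell to 0 when replicate a at atmospheric oxygen was left out and to 1 without any other of the 4 libraries, so it rests on each of them.

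In immortalized cells the response to 3% oxygen ran the same way through nearly the whole machine. Of the 50 genes, 48 were higher at 3% oxygen in both libraries, against 44.9% of all genes, the median difference was 0.88 against 0.11 for all genes, and 28 genes were higher at an adjusted p under 0.01 whatever the fold, against 8.92%. Called higher were CCNA2 and CCNB1 (cyclins A2 and B1), ZWINT (a kinetochore protein that binds the KNL1 complex), CDCA8 (borealin of the passenger complex), the kinesins KIF18A and KIF23, the cytokinesis proteins ANLN and CEP55, and MKI67. These 9 compare with 2.13% of all 12049 genes, and none of the 50 was called lower, against 2.78%.

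ANLN (anillin, the scaffold of the contractile ring; chromosome 7, 36429430 to 36493400) showed the largest difference, from 122 and 142 TPM at atmospheric oxygen to 358 and 343 TPM at 3% oxygen, 1.41 ± 0.17 on the log2 scale (SE, limma adjusted p = 0.000265). CCNB1 went from 111 and 122 to 240.1 and 229 TPM, 1.01 ± 0.15 (adjusted p = 0.000881), and CCNA2 from 35.7 and 44.7 to 84.6 and 79.4 TPM, 1.03 ± 0.13 (adjusted p = 0.000438). MKI67 went from 40.9 and 47.0 to 110.2 and 82.8 TPM, 1.11 ± 0.24 (adjusted p = 0.00685). For each of these 4 genes both plates at 3% oxygen lay above both at atmospheric oxygen, and the gap between the 3% plates was widest for MKI67 relative to its level.

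The kinases showed the same direction with differences close to the threshold of 1. AURKA read 45.5 and 48.3 TPM at atmospheric oxygen and 109 and 106 TPM at 3% oxygen, a difference of 1.19 ± 0.32 that was not called (adjusted p = 0.0189). In every comparison the SE of AURKA is pooled over all 8 groups. It takes in the metastasizing plates at 3% oxygen, which read 141 and 378 TPM, so it is wider than the plates compared here. PLK1 read 58.9 and 59.1 TPM at atmospheric oxygen and 116 and 114 TPM at 3% oxygen, a difference of 0.95 ± 0.20 (adjusted p = 0.00536). CDK1 read 107 and 113 TPM at atmospheric oxygen and 211 and 213 TPM at 3% oxygen, a difference of 0.94 ± 0.12 (adjusted p = 0.000358). The checkpoint kinase BUB1 stood at 34.7 and 37.8 TPM at atmospheric oxygen and 69.3 and 61.4 TPM at 3% oxygen, and the outer kinetochore protein NDC80, which grips the microtubule, at 39.9 and 42.6 TPM at atmospheric oxygen and 77.3 and 71.5 TPM at 3% oxygen. Their differences were 0.84 and 0.84, with adjusted p of 0.00793 and 0.0408. FOXM1, the transcription factor that drives genes of G2 and M phase, rose from 70.8 and 75.4 to 122 and 127 TPM, by 0.77 ± 0.15 (adjusted p = 0.00371).

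CDC25B, the phosphatase that activates CDK1 early at the centrosome, was the exception, at 82.6 and 97.4 TPM at atmospheric oxygen and 69.3 and 68.8 TPM at 3% oxygen, a difference of -0.38 ± 0.16 (adjusted p = 0.1), and ESPL1 (separase) overlapped between the oxygen levels. The 9 calls depended on the scaling, with 3 left after median-ratio rescaling or quantile normalization, 3 without replicate a at 3% oxygen and 2 without replicate a at atmospheric oxygen. The direction did not, since 49 genes were higher and CDC25B lower under all 3 scalings. Direct tests of the oxygen response between immortalized and primary cells called none of the 50 genes in limma. Of all 12632 genes, 0.8% were called higher and 1.06% lower. At an unadjusted p under 0.05 there were 12 of the 50, and the share of all genes at that threshold is not given. The extremes were KIF20A at 1.43 ± 0.38 (adjusted p = 0.0455) and KNL1 at -0.69 ± 0.64 (adjusted p = 0.594).

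**Figure D2:**
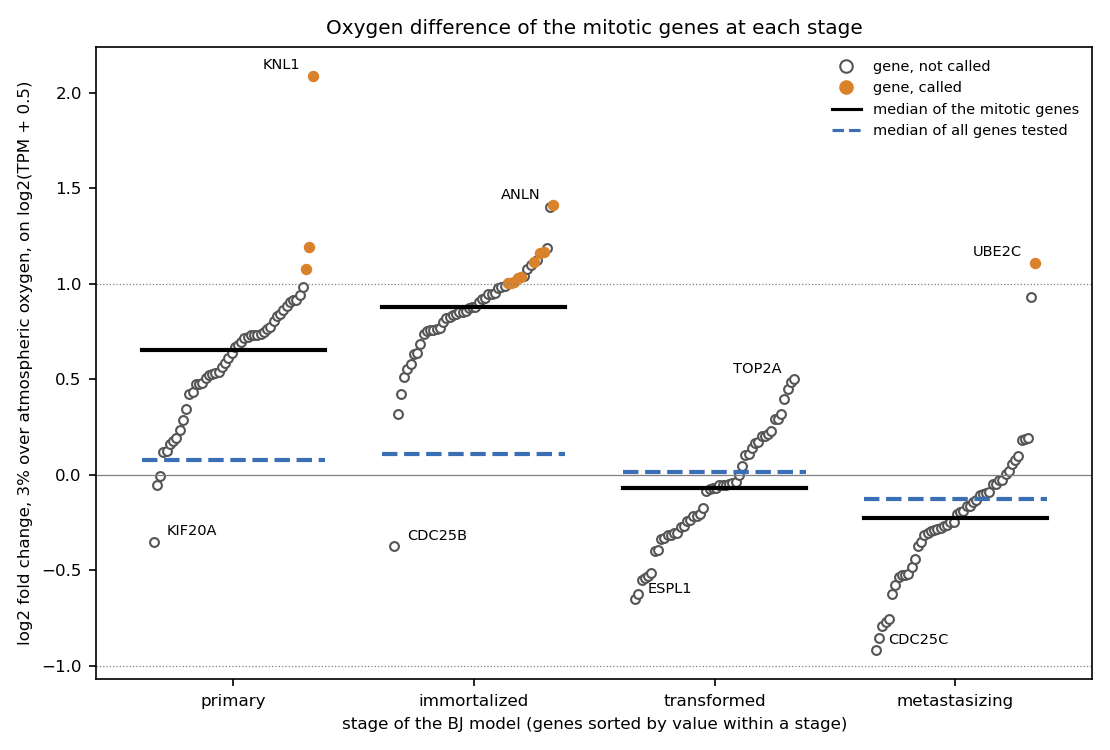
Log2 fold change of each of the 50 genes at 3% over atmospheric oxygen at the 4 stages, sorted within a stage, with called genes filled, the median of the 50 genes as a black line and that of all genes tested as a dashed blue line. The black line lies at 0.65 and 0.88 in primary and immortalized cells, well above the dashed line, and at -0.07 and -0.23 in transformed and metastasizing cells, close to it.

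In transformed cells, which carry SV40 Large-T, the mitotic genes held much the same level at both oxygen concentrations. Limma called none of the 50 in either direction, against 4.9% and 2.58% of 12242 genes called higher and lower. At an unadjusted p under 0.05 there were 12 of the 50, and the share of all genes at that threshold is not given. The median difference was -0.07 against 0.01 for all genes. Without replicate b of transformed cells at 3% oxygen the median of the 50 was 0.06, with that of all genes not given. Of the 50, 14 were higher at 3% oxygen and 21 lower without overlap of the libraries, against 37.3% and 35.2% of all genes, so this count lies near the background. TOP2A had the most positive difference, 231 and 222 TPM at atmospheric oxygen and 364 and 282 TPM at 3% oxygen, or 0.50 ± 0.19 on the log2 scale (adjusted p = 0.0667). ESPL1 had the most negative, 31.2 and 30.8 TPM at atmospheric oxygen and 21.9 and 17.4 TPM at 3% oxygen, or -0.65 ± 0.31 (adjusted p = 0.125). MKI67 stood at 63.8 and 64.0 TPM at atmospheric oxygen and 76.5 and 53.2 TPM at 3% oxygen, a difference that rounds to 0 with an SE of 0.24. CCNA2 (142 and 130.0 TPM at atmospheric oxygen and 103 and 87.3 TPM at 3% oxygen) and CDCA8 (118 and 119 TPM at atmospheric oxygen and 85.3 and 69.4 TPM at 3% oxygen) were lower by less than 2-fold, at -0.52 and -0.62 with adjusted p of 0.0121 and 0.0159.

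The oxygen response of transformed cells was lower than that of immortalized cells in a direct test. The difference between the 2 responses was called for 17 of the 50 genes, each lower in transformed cells, against 5.84% of 12715 genes called lower, and the median was -1.0 against -0.08. These 17 were the kinases and cyclins AURKB, PLK1, CCNA2, CCNB1 and CCNB2, the APC/C activator CDC20, the kinetochore proteins SPC25 and ZWINT, borealin (CDCA8), the spindle proteins TPX2, KIF18A, KIF20A, KIF23 and KIF4A, the cytokinesis proteins ANLN and CEP55, and FOXM1. CDCA8 differed the most among them, at -1.64 ± 0.24 (limma adjusted p = 0.000624), followed by KIF20A at -1.61 ± 0.38 (adjusted p = 0.0086) and CCNA2 at -1.54 ± 0.19 (adjusted p = 0.000208). KNL1 had the most negative value of all 50, -1.80 ± 0.64, which missed the threshold (adjusted p = 0.0521), and CDC25B the 1 positive value, 0.67 ± 0.22 (adjusted p = 0.0391). The count was 9 after quantile normalization, 10 without replicate a of immortalized cells at atmospheric oxygen, 10 without replicate b of transformed cells at 3% oxygen and 11 without replicate b of transformed cells at atmospheric oxygen.

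In metastasizing cells only UBE2C, the E2 enzyme that feeds ubiquitin to the anaphase-promoting complex, was called higher at 3% oxygen, from 232 and 224 TPM to 386 and 631 TPM, a difference of 1.11 ± 0.18 (limma adjusted p = 0.00129). Against it stand 3.06% of all 12288 genes called higher and 4.6% called lower, and the median of the 50 genes was -0.23 against -0.13. CDC25C, the phosphatase that triggers CDK1 at mitotic entry, had the most negative value, at 43.2 and 45.0 TPM at atmospheric oxygen and 14.8 and 35.8 TPM at 3% oxygen, or -0.92 ± 0.30 (adjusted p = 0.0425). These values rest on replicates that disagree. AURKA was listed at 141 and 378 TPM in the 2 libraries at 3% oxygen, INCENP at 35.4 and 70.5 TPM and ASPM, a protein of the spindle pole, at 12.7 and 28.8 TPM. AURKA, CDC25C, TTK, NDC80, NUF2, CENPE, ASPM and ESPL1 differed more than 2-fold between the 2 plates. Without replicate a at 3% oxygen the median of the 50 genes turned to 0.05, and without replicate b it was -0.49. The calls among the 50 were all higher in the first of these fits and all lower in the second. The medians and the shares called of all genes in these fits are not given. Leaving out either replicate at atmospheric oxygen left no call. The direct test between the metastasizing and transformed responses called none of the 50 in limma, against 2.84% and 5.62% of 12590 genes called higher and lower. In that test 11 of the 50 had an unadjusted p under 0.05, and the share of all genes at that threshold is not given. The extremes of the test were AURKA at 1.24 ± 0.45 (adjusted p = 0.0656) and CDC25C at -1.12 ± 0.43 (adjusted p = 0.0762). The median of the test over the 50 genes was -0.13 against -0.15 for all genes, so the 50 lay near all genes. Calls appeared when replicate a or replicate b of metastasizing cells at 3% oxygen was left out. Without replicate a the median of the 50 was 0.12, with that of all genes not given.

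The next question was how the genes changed from stage to stage. From primary to immortalized cells at atmospheric oxygen the genes that changed fell, with 8 of 50 called lower and none higher, against 6.26% of 12388 genes called lower and 5.98% called higher. Called lower were CCNA2, CCNB1, CDC20, SPC24, CENPF, CDCA8, KIF20A and UBE2C, and the median over the 50 genes was -0.72 against -0.09 for all genes. At an adjusted p under 0.01 whatever the fold, 19 were lower and none higher, against 12.6% of all genes lower and 10.1% higher, and 45 were lower without overlap, against 40.7%. CDC20, the activator of the anaphase-promoting complex, was 202 and 235 TPM in primary and 93.4 and 110.2 TPM in immortalized cells, a difference of -1.10 ± 0.18 (limma adjusted p = 0.000866). CENPF, a large outer kinetochore protein, had the most negative value, from 85.1 and 84.1 to 34.6 and 29.7 TPM, or -1.39 ± 0.26 (adjusted p = 0.0019). KIF20A went from 129 and 145 to 48.0 and 61.2 TPM, or -1.33 ± 0.27 (adjusted p = 0.00293). For each of these genes both immortalized libraries lay below both primary ones.

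BUB3 moved the other way, from 186 and 212 to 240.0 and 289.8 TPM, a difference of 0.41 ± 0.11 that was not called (adjusted p = 0.0122), and CDC25B likewise, from 58.7 and 78.4 to 82.6 and 97.4 TPM (0.40, adjusted p = 0.0673). AURKA at -0.85 ± 0.32 and MKI67 at -0.42 ± 0.24 did not pass, with adjusted p of 0.0573 and 0.197. With protein-coding transcripts alone, CENPF was at -0.86 with an adjusted p of 0.0166, which is no call (adjusted p from 0.000621 to 0.0166 over the alternatives other than left-out libraries). The 8 calls were 4 after quantile normalization, 4 without replicate b of primary cells and 3 without replicate a of immortalized cells. The summed epithelial markers, nearly all KRT19, also differed at this step, at 162 to 205 TPM in primary and 0.455 to 1.07 TPM in immortalized cells at atmospheric oxygen. At 3% oxygen the same step called none of the 50 in limma, against 4.19% and 5.04% of 12218 genes called higher and lower. The median was -0.37 against -0.06 for all genes. At an unadjusted p under 0.05 there were 22 of the 50, and the share of all genes at that threshold is not given. KNL1 had the most negative value there, 129 and 50.4 TPM against 27.6 and 24.1 TPM, or -1.63 ± 0.45 (adjusted p = 0.0193), and BUB3 the most positive, 370.4 and 394 against 455 and 442 TPM, or 0.23 ± 0.11 (adjusted p = 0.13). Without either replicate of primary cells 1 gene was called at this step.

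The step from immortalized to transformed cells at atmospheric oxygen gave the most calls among the mitotic genes of the 13 comparisons. Every one of the 50 was higher in both transformed libraries, against 50.9% of all genes, 34 were called higher against 13.2% of 12387 genes, and 40 were higher at an adjusted p under 0.01 whatever the fold, against 25.9%. The median was 1.30 against 0.22 for all genes, which is 1.09 above it. By role, 8 of 10 kinases, cyclins and phosphatases were called, 5 of 6 checkpoint genes, 6 of 11 kinetochore and centromere genes, all 3 passenger subunits, 7 of 11 spindle motors and assembly factors, 2 of 3 cytokinesis genes, 2 of 3 anaphase genes and FOXM1, but neither TOP2A nor MKI67.

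Aurora A (chromosome 20, 54944445 to 54967393) rose the most, from 45.5 and 48.3 TPM to 273 and 279 TPM, by 2.54 ± 0.32 on the log2 scale (SE, n = 2 libraries against 2, limma adjusted p = 5.24e-05). Aurora B (chromosome 17, 8108051 to 8113918) rose from 40.2 and 48.6 to 189 and 204 TPM, by 2.14 ± 0.15 (adjusted p = 6.32e-07). Cyclin B1 rose from 111 and 122 to 471 and 460.4 TPM, by 1.99 ± 0.15 (adjusted p = 1.14e-06). The replicates were close to each other beside these rises. PLK1 (chromosome 16, 23688977 to 23701688) rose from 58.9 and 59.1 to 157 and 156 TPM, by 1.40 ± 0.20 (adjusted p = 0.000125). The 2 other passenger subunits BIRC5 (survivin) and INCENP rose by 1.55 and 1.25, and borealin (CDCA8) by 1.97 ± 0.17 (adjusted p = 3.41e-06), so that the kinase and all 3 of its partners passed the test. Transcripts not annotated as protein-coding made up 58.0% to 72.2% of the INCENP sum over the libraries. For MAD2L1, a checkpoint gene also called here, they made up 79.4% to 84.8%, so neither sum is mainly coding RNA.

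Among checkpoint genes, BUB1 rose from 34.7 and 37.8 to 105 and 102 TPM, by 1.51 ± 0.19 (adjusted p = 5.26e-05), and CDC20 to 357 and 364 TPM, by 1.82 ± 0.18 (adjusted p = 1.06e-05). BUB3 was the exception of the checkpoint, at 240.0 and 289.8 TPM before and 312 and 293 TPM after, a difference of 0.20 ± 0.11 (adjusted p = 0.141), the smallest of the 50 and -0.03 after median-ratio rescaling. In the outer kinetochore NDC80 rose from 39.9 and 42.6 to 112 and 102 TPM, by 1.36 ± 0.27 (adjusted p = 0.00136). Its partners SPC24 and SPC25 rose too, by 1.42 and 1.56, while NUF2 at 1.84 ± 0.54 missed the threshold (adjusted p = 0.0133). The NUF2 sum contains NUF2-211, a retained-intron transcript listed between 0 and 127 TPM over the libraries, and protein-coding NUF2 transcripts alone were 30.0 and 30.8 TPM in immortalized and 78.5 and 78.3 TPM in transformed cells. CENPF, at 34.6 and 29.7 TPM before and 46.4 and 56.2 TPM after, and CENPE, a kinetochore kinesin, differed by 0.66 and 0.72 and did not pass.

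KIF20A rose from 48.0 and 61.2 to 139.8 and 150.3 TPM, by 1.41 ± 0.27 (adjusted p = 0.00105), and KIF18A, a kinesin that damps chromosome swings, by 1.92 ± 0.17 (adjusted p = 4.32e-06). FOXM1 rose from 70.8 and 75.4 to 157 and 173 TPM, by 1.17 ± 0.15 (adjusted p = 6.02e-05). The proliferation marker MKI67 was 40.9 and 47.0 TPM before and 63.8 and 64.0 TPM after, a difference of 0.54 ± 0.24 that did not pass (adjusted p = 0.0809). TOP2A at 0.94 ± 0.19 and CDK1 at 0.97 ± 0.12 passed the p threshold, at 0.00166 and 4.23e-05, but lay just under 2-fold. TTTGAA was found in the promoters of 18 of 28 called genes with an entry and of 11 of 14 not called, and CCAAT in 23 and 12, so neither motif was confined to the called genes.

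**Figure D3:**
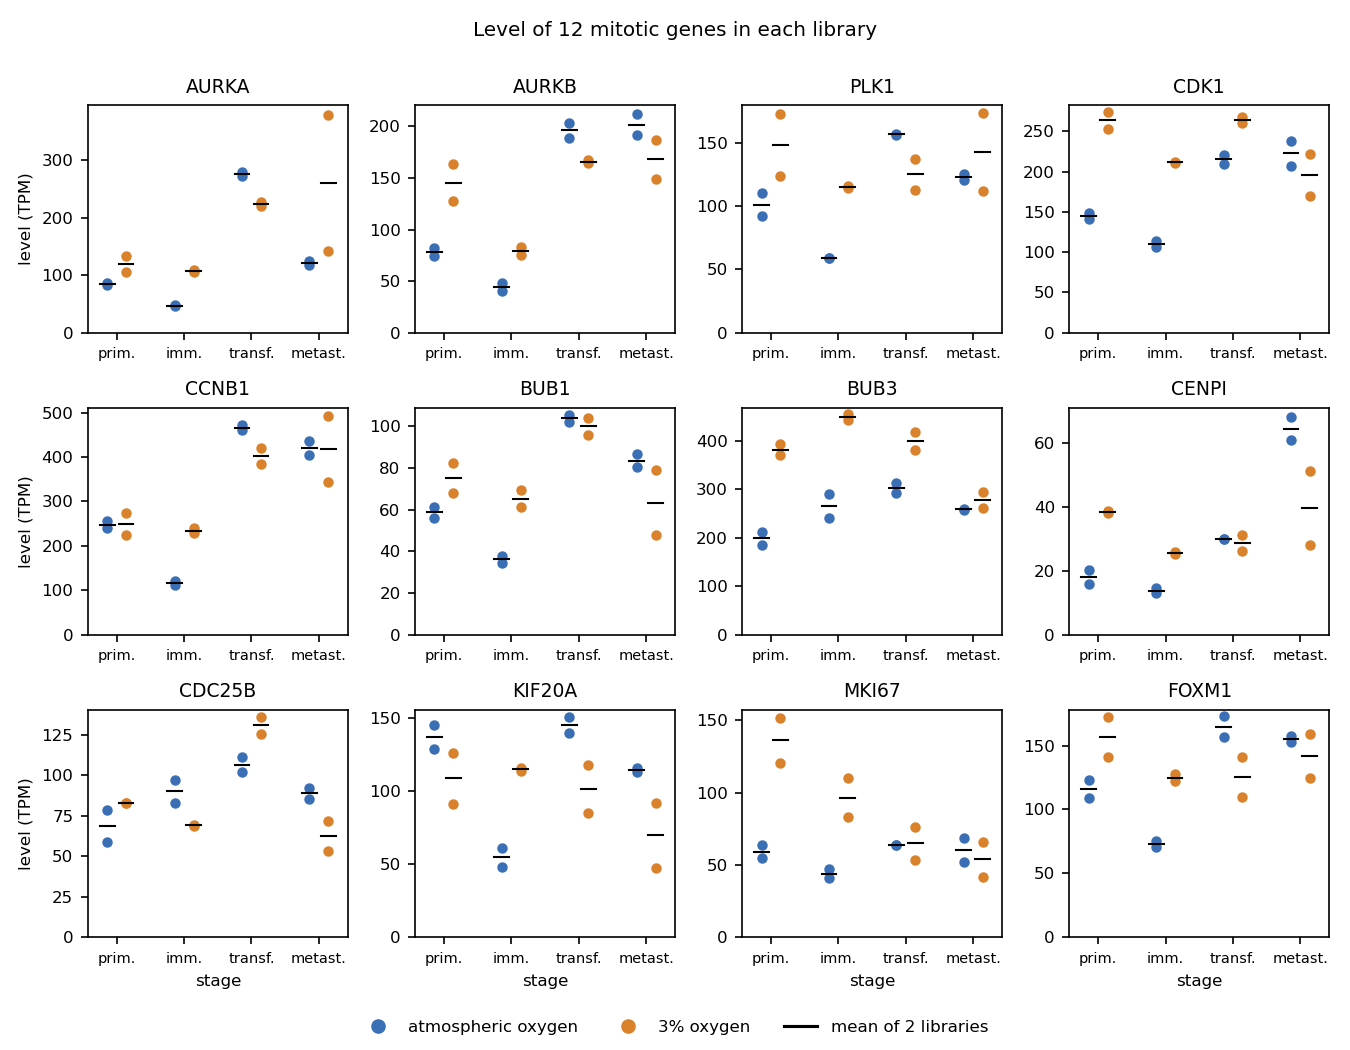
Level in TPM of 12 of the genes in each library, by stage, with atmospheric oxygen in blue, 3% oxygen in orange and the mean of the 2 libraries as a bar. AURKA lies above 200 TPM in all 4 transformed libraries and below it in all primary and immortalized ones, MKI67 is highest in primary cells at 3% oxygen (121 and 152 TPM), and the orange points of metastasizing cells lie far apart for AURKA (141 and 378 TPM).

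At 3% oxygen the same step gave few calls. Only AURKB and UBE2C were called higher, against 8.96% of 12396 genes, and the median was 0.31 against 0.11 for all genes. AURKB was 82.9 and 74.9 TPM in immortalized and 168 and 164 TPM in transformed cells, a difference of 1.07 ± 0.15 (limma adjusted p = 0.000179). UBE2C went from 153 and 153 to 351 and 351 TPM, or 1.19 ± 0.18 (adjusted p = 0.000334). AURKA, at 109 and 106 TPM before and 227 and 219.8 TPM after, had a difference of 1.05 ± 0.32 that was not called (adjusted p = 0.0193), and CCNB1, at 240.1 and 229 TPM before and 419 and 384 TPM after, one of 0.77 ± 0.15 (adjusted p = 0.0016), under 2-fold. The pooled SE of AURKA again takes in the uneven metastasizing plates at 3% oxygen. At this oxygen level 34 genes were higher and 7 lower without overlap, against 43.9% and 32.2% of all genes. The 7 were BUB3, ZWINT, CENPE, KIF11, ANLN, CEP55 and MKI67. MKI67 had the most negative value, 110.2 and 82.8 TPM before and 76.5 and 53.2 TPM after, or -0.58 ± 0.24 (adjusted p = 0.0734). UBE2C was the 1 gene left after median-ratio rescaling, and 1 gene was left without replicate b of immortalized cells.

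The test of the step between oxygen levels is the same as the test of the oxygen response between the 2 stages given above, so the 17 genes named there are also those with a lower transformation step at 3% oxygen. CDC25B was the 1 gene with a larger difference at 3% oxygen, at 0.92 (adjusted p = 0.000781) against 0.25 at atmospheric oxygen. The 2 libraries of immortalized cells at atmospheric oxygen enter the fall from primary cells, the rise to transformed cells, the oxygen response of immortalized cells and this difference alike, so these 4 results share them and are not independent of each other. Replicate b was the higher of those 2 libraries in 48 of the 50 genes, by a median of 0.20 on the log2 scale.

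**Figure D4:**
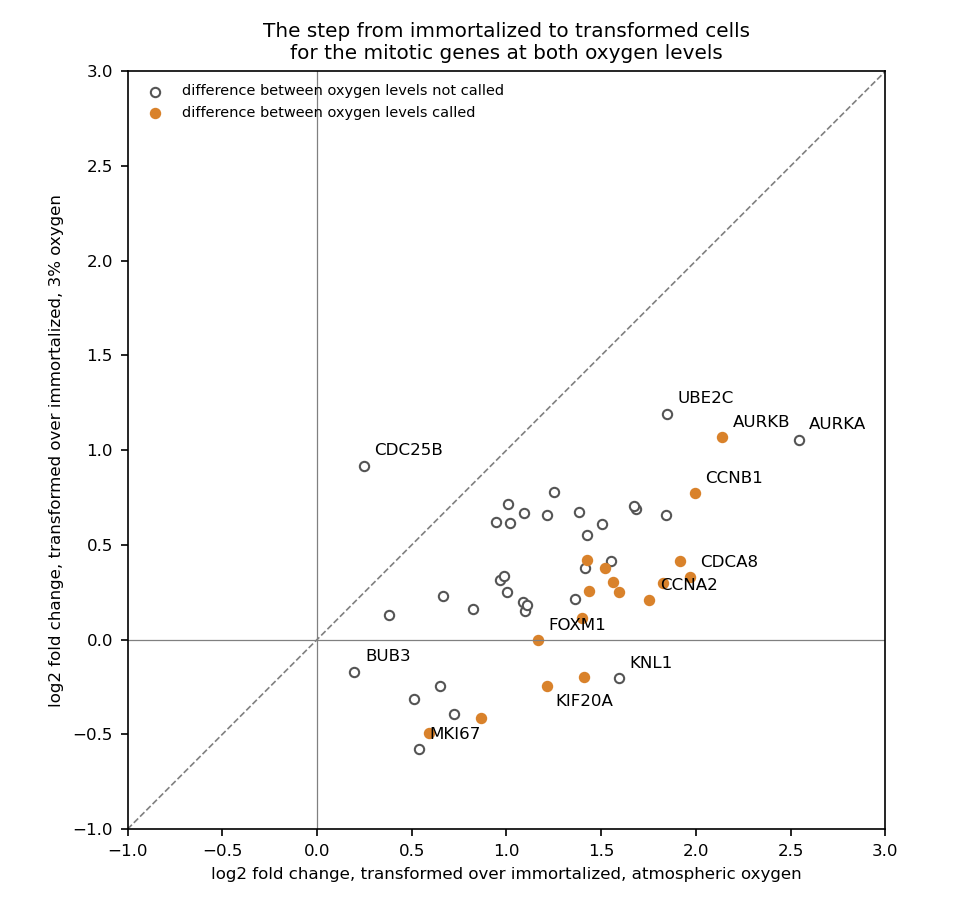
Log2 fold change of each gene from immortalized to transformed cells at atmospheric oxygen (x axis) and at 3% oxygen (y axis), with the 17 genes whose 2 values differed in a direct test filled and the line of equal values dashed. Every gene but CDC25B lies under the dashed line, from BUB3 (0.20 and -0.17) to AURKA (2.54 and 1.05).

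From transformed to metastasizing cells few of the genes changed. At atmospheric oxygen CENPI was the 1 gene called, from 30.0 and 29.9 TPM to 60.9 and 68.4 TPM, or 1.09 ± 0.22 (limma adjusted p = 0.00636), against 2.4% of 12203 genes called higher and 1.72% called lower. The call was lost when any of the 4 libraries was left out. AURKA had the most negative value, 273 and 279 TPM against 118 and 124 TPM, or -1.19 ± 0.32 (adjusted p = 0.0249), which passes at 0.05 but not at 0.01. The SE of each gene is pooled over all 8 groups, the uneven plates of metastasizing cells at 3% oxygen included, and in a fit without that group, chosen after seeing the data, 2 genes were called, 1 in each direction. The median over the 50 genes was -0.15 against 0.06. FOXM1 (158 and 153 TPM), PLK1 (125 and 120.1 TPM), BUB1 (80.5 and 86.6 TPM), CENPF (44.1 and 57.2 TPM) and KIF20A (116 and 113 TPM) gave differences from -0.35 (PLK1) to -0.02 (CENPF), and none of them passed the test. CDC25C was at 30.5 and 26.3 TPM in transformed and 43.2 and 45.0 TPM in metastasizing cells, or 0.63 ± 0.30 (adjusted p = 0.174).

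At 3% oxygen CDC25B and INCENP, the scaffold of the passenger complex, were called lower in metastasizing cells, against 3.93% of 12288 genes. CDC25B was 126 and 136 TPM in transformed and 53.3 and 71.7 TPM in metastasizing cells, or -1.08 ± 0.16 (adjusted p = 0.000809), and INCENP went from 111 and 101 TPM to 35.4 and 70.5 TPM, or -1.08 ± 0.24 (adjusted p = 0.00731), the most negative value of the 50 before rounding. UBE2C had the most positive value, 0.49 ± 0.18 (adjusted p = 0.0628), and TOP2A fell by less than 2-fold, from 364 and 282 to 137 and 217 TPM (-0.89, adjusted p = 0.00704). The median over the 50 genes was -0.27 against -0.07 for all genes. Without replicate a of metastasizing cells the median of the 50 was 0.04, with that of all genes not given. The 2 calls were lost without that replicate, and the calls without replicate b were all lower. The count also moved without either replicate of transformed cells. The share of all genes called in these fits is not given. Over the alternatives other than left-out libraries the adjusted p of INCENP ran from 0.00353 to 0.19.

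Single retained-intron transcripts made up most of the largest gaps between replicates in the sums of KNL1 and NUF2. Outside primary cells at 3% oxygen, KNL1-204 was listed at 19.1 TPM in replicate b of transformed cells at atmospheric oxygen and at 0 in replicate a. Protein-coding KNL1 transcripts were 6.0 and 7.50 TPM in immortalized cells at atmospheric oxygen, 15.8 and 18.5 TPM at 3% oxygen, and this sum passed the test for oxygen in immortalized cells (1.29, adjusted p = 0.00807), as did that of CENPF (1.06, adjusted p = 0.00875). For the gene sums the same differences were 1.40 ± 0.45 (adjusted p = 0.0414) and 0.92 ± 0.26 (adjusted p = 0.0249). In transformed cells they were 15.3 and 13.9 TPM at atmospheric and 23.7 and 12.2 TPM at 3% oxygen, and in metastasizing cells 11.9 and 13.9 TPM and 7.61 and 12.1 TPM. Primary cells at 3% oxygen thus held the highest level of coding KNL1 RNA of the 8 groups. NUF2-211 was listed at 78.5 and 0 TPM in the plates of primary cells at atmospheric oxygen and at 0 and 127 TPM in those of metastasizing cells at 3% oxygen, while protein-coding NUF2 transcripts were 49.1 and 56.3 TPM and 54.0 and 81.5 TPM. In 10 of the 16 libraries more than 10 TPM of the NUF2 sum came from this 1 transcript.

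**Figure D5:**
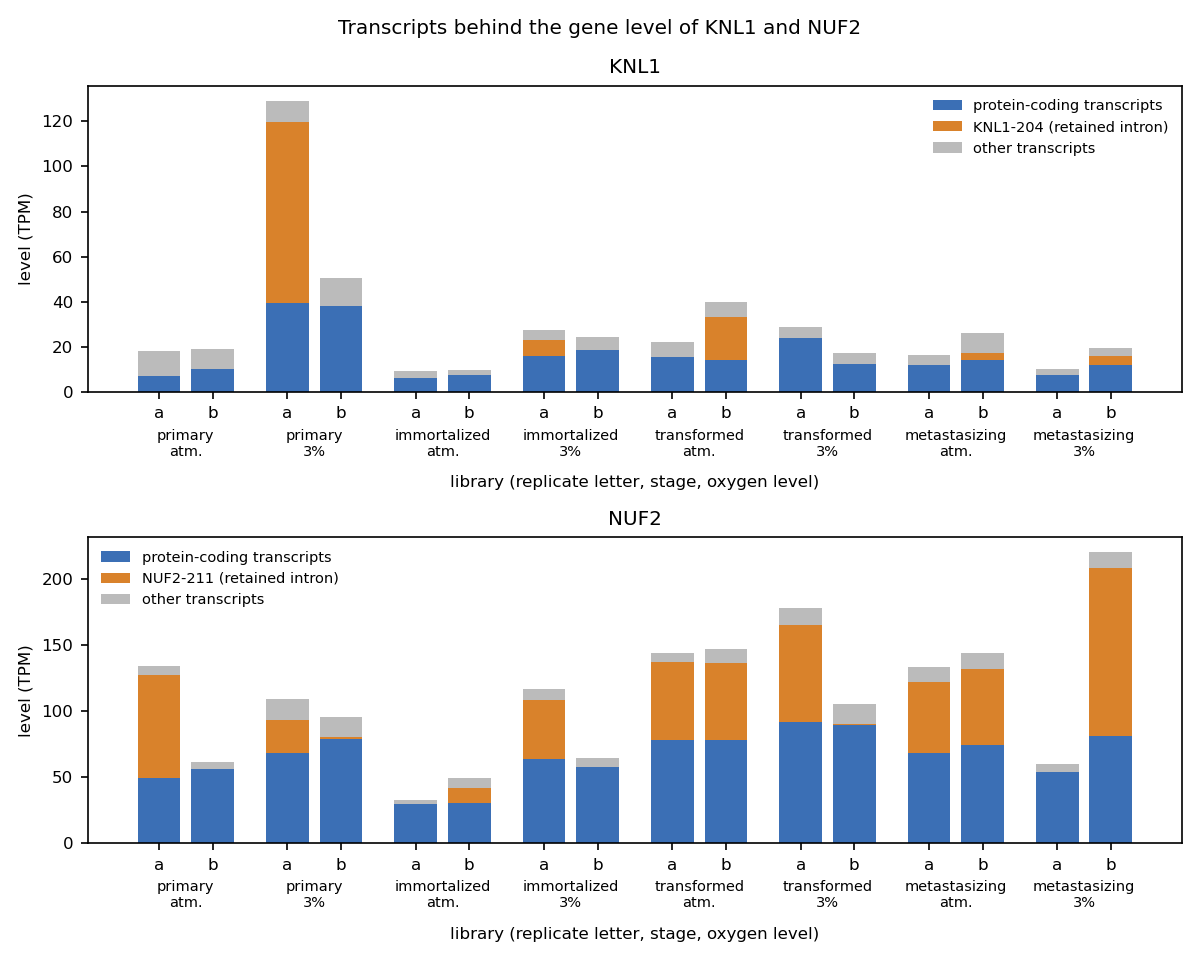
Level in TPM of KNL1 and NUF2 in each library, split into protein-coding transcripts (blue), a single retained-intron transcript of each gene (orange) and other transcripts (grey). The orange part appears in some plates and not in their replicates, as for KNL1-204 in primary cells at 3% oxygen (80.3 and 0 TPM), while the blue part there is nearly the same in both (39.4 and 38.1 TPM).

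Further genes of the same pathways, from lists named by function, were set beside the 50. Of 33 other spindle, cytokinesis and mitotic entry genes, 24 of 32 tested were called higher from immortalized to transformed cells at atmospheric oxygen and 3 at 3% oxygen, against 13.2% and 8.96% of all genes, so that the count at 3% oxygen lies near the background. Their medians were 1.28 and 0.30 against 0.22 and 0.11 for all genes. MASTL, the kinase that restrains the phosphatase opposing CDK1, rose by 2.10 ± 0.21 (adjusted p = 8.47e-06), and TRIP13, which takes the checkpoint complex apart, by 1.92 ± 0.11 (adjusted p = 2.4e-07). Of 29 other centromere and kinetochore genes, 15 were called higher at that step at atmospheric oxygen, against the same 13.2%, led by SPDL1 (spindly, which recruits dynein to kinetochores) at 2.51 ± 0.16 (adjusted p = 3.71e-07), and 6 were called lower from primary to immortalized cells, against 6.26% of all genes, with SPDL1 at -2.37 ± 0.16. Of 19 genes of condensin, cohesin and shugoshin, 11 were called higher at the transformation step at atmospheric oxygen, against 13.2%, with SGO1, which guards centromeric cohesion, at 1.95 ± 0.22 (adjusted p = 2.65e-05). Of 20 genes of the APC/C and its regulators, 4 were called higher, a share not far from the 13.2% of all genes, with a median of 0.75 against 0.22, and CDC23 rose by 1.54 ± 0.11 (adjusted p = 7.85e-07). None of these 4 lists had a gene called higher or lower with oxygen in transformed cells, against 4.9% and 2.58% of all genes, at medians from -0.21 to 0.19 against 0.01. In primary and immortalized cells 6 and 4 of the other spindle genes were called higher with 3% oxygen. The other centromere and kinetochore list had 3 and 5, and the condensin list 3 and 3. The APC/C list had 1 and 0, so its absence of calls is not particular to transformed cells. Of all genes 2.78% and 2.13% were called higher at these stages.

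The regulators of these genes were read from their own list. MYBL2 (B-MYB, the activator that joins MuvB) was 58.6 to 68.9 TPM in primary, 19.7 to 25.9 TPM in immortalized and 234 to 241 TPM in transformed cells at atmospheric oxygen, differences of -1.47 ± 0.14 and 3.37 ± 0.14 (adjusted p = 2.2e-05 and 2.92e-08). Its oxygen response was lower in transformed than in immortalized cells, with a difference of -1.31 ± 0.20 (adjusted p = 0.000841). Of the 14 genes of the MuvB core, B-MYB and the pocket protein partners, 5 were called higher and 1 lower at the transformation step at atmospheric oxygen, against 13.2% and 11.2% of all genes. With 3% oxygen 1 of these 14 genes was called higher and none lower at each stage. Of all genes, 2.78%, 2.13%, 4.9% and 3.06% were called higher and 2.52%, 2.78%, 2.58% and 4.6% lower, in the order of the stages. RBL1 (p107) rose with 3% oxygen in primary cells, by 1.41 ± 0.16, and in immortalized cells, by 1.04 ± 0.16 (adjusted p = 0.000218 and 0.00129). RBL2 (p130), a pocket protein of resting cells, rose with 3% oxygen in transformed and metastasizing cells, by 1.15 ± 0.20 and 1.20 ± 0.20 (adjusted p = 0.00144 and 0.00141).

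Cell cycle brakes moved in both directions. At the transformation step at atmospheric oxygen 2 of 9 tested were called higher and 3 lower, against 13.2% and 11.2% of all genes. From transformed to metastasizing cells at atmospheric oxygen 2 of 9 were called higher and none lower, against 2.4% and 1.72%. CDKN1A (p21) was 237 to 282 TPM in immortalized and 45.3 to 46.0 TPM in transformed cells at atmospheric oxygen, a difference of -2.49 ± 0.34 (adjusted p = 9.62e-05), and 177 to 192 TPM in metastasizing cells, a rise of 2.00 ± 0.34 (adjusted p = 0.00239). CDKN2A, the INK4A and ARF locus, was 0 to 0.132 TPM in immortalized libraries and 82.5 to 85.7 TPM in transformed ones at atmospheric oxygen, so its fitted fold depends on the pseudocount and is not given. Of the 10 brakes, 3 were called lower with 3% oxygen in primary cells, against 2.52% of all genes, and none of 7 tested was called in immortalized cells, against 2.13% called higher and 2.78% lower. The largest falls in primary cells were CDKN2A, from 8.30 and 4.89 to 0.46 and 2.05 TPM, and CDKN1C, from 1.97 and 2.03 to 0.10 and 0.25 TPM. Both end near the floor, so their size depends on the pseudocount. In transformed cells 1 brake was called higher, against 4.9% of all genes. It was CDKN1C, near the floor at 0.41 and 0.22 TPM at atmospheric and 1.74 and 1.77 TPM at 3% oxygen. In metastasizing cells 4 of 9 were called lower, against 4.6%. The metastasizing plates at 3% oxygen disagreed, with BTG2 at 4.50 and 0.68 TPM and CDKN2B at 4.54 and 11.4 TPM. The count was not recomputed without either plate. Of 11 tubulins, the building blocks of the spindle, 10 were tested. With 3% oxygen 1 was called higher and none lower in immortalized cells, against 2.13% and 2.78% of all genes. It was TUBA1B, which rose by 1.04 ± 0.11 (adjusted p = 0.000118). In transformed cells none was called higher and 2 lower, against 4.9% and 2.58%. TUBB3 fell the most there, from 90.3 to 99.7 TPM at atmospheric to 13.4 to 18.1 TPM at 3% oxygen, a difference of -2.57 ± 0.28 (adjusted p = 0.000109). None was called in primary or metastasizing cells. Of 10 tubulins tested, 5 were called higher and 1 lower at the transformation step at atmospheric oxygen, against 13.2% and 11.2% of all genes, with the fall in TUBA4A at -3.53 ± 0.25 (adjusted p = 8.76e-07).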

How the data were processed

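Poly-A RNA of 16 libraries (4 BJ fibroblast stages, 2 oxygen levels, 2 plates each) was sequenced with a stranded kit in paired-end mode. The authors quantified transcripts with kallisto (0.42.1) on GRCh37 and deposited TPM per transcript, without counts, so depth is unknown and no counting interval can be given. Of 180253 transcripts listed, 151453 matched GENCODE 44 lifted to GRCh37 and were summed over 34451 genes (19356 protein-coding). These hold 88.2% to 90.1% of the TPM of a library, with 11654 to 11943 genes above 1 TPM. Unmatched transcripts (28800) were left out, so a member's sum lacks any of its transcripts that GENCODE 44 no longer lists.

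Log2(TPM + 0.5) was fitted with limma (3.58.1, R 4.3.3, intensity trend) as 8 group means over all 16 libraries, with 8 residual degrees of freedom. A protein-coding gene was tested where its mean reached 1 TPM in 1 of the groups of that comparison, over 13 comparisons (4 of oxygen, 6 of neighbouring stages, 3 of oxygen responses between stages). P-values were adjusted by Benjamini-Hochberg over all genes tested, and a call needed an adjusted p under 0.01 and a log2 fold change beyond 1. No sample was dropped or imputed outside the alternatives. The members and all lists (APC/C, other centromere and kinetochore, condensin and cohesin, other spindle, MuvB, brakes, tubulins, cell type markers) were chosen with earlier results of these data known. All 50 members could be named by role, with values in every library for the genes named by the study, a fixed set of leading members, and the extremes of each comparison. Genes outside the 50 were named from the lists only, at most the 2 largest rises and 2 largest falls of a list in a comparison. Alternatives were pseudocounts of 1 and 0.1, no filter or 5 TPM, median-ratio and quantile scaling, only the groups compared, a replicate block, no intensity trend, an adjusted p under 0.05, all genes, each library left out, and 2 chosen after seeing the data (protein-coding transcripts only, and no metastasizing cells at 3% oxygen). The script was tested on simulated data. Promoters were RefSeq windows of 250 bases before to 50 after the start, and sums, counts and plots were made with pandas 2.3.3, matplotlib 3.10.9 and numpy 2.4.6 under Python 3.11.15.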

Additional observations from a re-analysis of the deposited data

Results flagged for a closer look

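The oxygen response of 17 mitotic genes differed between transformed and immortalized cells in a direct test, an interaction term in limma over all genes, and is listed here for that reason. Each value is the log2 fold change at 3% over atmospheric oxygen in transformed cells minus that in immortalized cells, with its SE. Among the kinases and cyclins it was -1.07 ± 0.21 for AURKB, -1.28 ± 0.28 for PLK1, -1.54 ± 0.19 for CCNA2, -1.22 ± 0.21 for CCNB1 and -1.18 ± 0.20 for CCNB2. Among checkpoint, kinetochore and passenger genes it was -1.53 ± 0.26 for CDC20, -1.26 ± 0.19 for SPC25, -1.27 ± 0.16 for ZWINT and -1.64 ± 0.24 for CDCA8. Among spindle genes it was -1.14 ± 0.24 for TPX2, -1.5 ± 0.24 for KIF18A, -1.61 ± 0.38 for KIF20A, -1.34 ± 0.19 for KIF23 and -1.01 ± 0.21 for KIF4A. The cytokinesis genes gave -1.46 ± 0.24 for ANLN and -1.09 ± 0.16 for CEP55, and FOXM1 gave -1.17 ± 0.21. Adjusted p ranged from 0.000208 for CCNA2 to 0.0086 for KIF20A. All 17 share the 2 libraries of immortalized cells at atmospheric oxygen, the group with the lowest mean of each of these genes, and the part of those plates in the difference was not tested beyond leaving each of them out.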

How the results depend on the processing

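The counts of called mitotic genes were recomputed under each alternative, and so were 102 single results of members (those called or beyond 2-fold), none of which changed sign. Directions did turn elsewhere. For oxygen in metastasizing cells the 1 call was higher, while all calls were lower without replicate b at 3% oxygen. The median of the 50 genes there went from -0.23 to 0.05 without replicate a. BUB3, 0.20 from immortalized to transformed cells at atmospheric oxygen, was at -0.03 after median-ratio rescaling. With 2 plates a group, counts near the threshold moved. No filter on low values gave 0 calls for oxygen in primary cells, 0 from transformed to metastasizing cells at atmospheric oxygen and 1 at 3% oxygen. Fitting only the groups compared gave 0 for oxygen in primary cells, 0 in metastasizing cells, 2 from transformed to metastasizing cells at atmospheric and 0 at 3% oxygen, 1 from primary to immortalized cells at 3% oxygen, and 1 for the response of immortalized minus primary cells. Median-ratio rescaling gave 3 for oxygen in immortalized cells, 1 from immortalized to transformed cells at 3% oxygen and 1 for the response of metastasizing minus transformed cells. Quantile normalization gave 3, 4 and 9 for oxygen in immortalized cells, the step from primary to immortalized cells at atmospheric oxygen, and the response of transformed minus immortalized cells. An adjusted p under 0.05 gave 14 for oxygen in immortalized cells, and 2 each from transformed to metastasizing cells at atmospheric oxygen, from primary to immortalized cells at 3% oxygen, and for the response of immortalized minus primary cells. No intensity trend, and protein-coding transcripts only, each gave 1 from transformed to metastasizing cells at 3% oxygen. Leaving out metastasizing cells at 3% oxygen gave 2, 1 and 2 for the step from transformed to metastasizing cells at atmospheric oxygen, the step from primary to immortalized cells at 3% oxygen, and the response of immortalized minus primary cells. The cause of these moves was not tested.

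Leaving out each library in turn gave 0 to 1 calls for oxygen in primary, 2 to 11 in immortalized, 0 in transformed and 0 to 8 in metastasizing cells. For the steps at atmospheric oxygen it gave 3 to 12, 23 to 37 and 0, in the order of the stages, and at 3% oxygen 0 to 1, 1 to 2 and 0 to 10. For the differences between oxygen responses it gave 0 for immortalized minus primary, 10 to 18 for transformed minus immortalized and 0 to 7 for metastasizing minus transformed cells. A group with 1 plate left is assumed to vary like the others. The share of all genes called in these fits is not given, so the counts have no background beside them. Of the single results of members, 411 kept their side of the threshold with a library left out, 110 lost it and 3 gained it.

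The letters a and b are not said to mark a shared batch. Deviations of same-letter libraries correlated between -0.16 and 0.23 over the 10 comparisons between groups, so the libraries were taken to share only a letter. With the letter as a replicate block, 1 gene was called for oxygen in primary cells (KNL1 at an adjusted p of 0.0201, CENPI at 0.0125). The block gave 0 and 1 calls from transformed to metastasizing cells at atmospheric and 3% oxygen, and 11 for the response of transformed minus immortalized cells. It gave 34 from immortalized to transformed cells at atmospheric oxygen, as without the block. TPM carries no depth, so the counting error of the scarcer genes, such as KIF14 and ESPL1, is unknown.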
